A study of Mus musculus with 2 samples.

Results

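A set of 10 secreted immune regulators was followed in cultured mouse retinal pigment epithelium (RPE), the pigmented layer behind the photoreceptors, with and without interferon gamma (IFNg). They were the interleukin genes Il6, Il7, Il11, Il15, Il18 and Il33, the cytokine genes Lif and Csf1, and the antagonist genes Il18bp and Il1rn. These 10 genes were chosen by name, with earlier results of these data known. All probe sets annotated to them were taken: 17 of the 45037 probe sets that are not controls, and 10 of the 18193 genes that a probe set names alone. One culture was given IFNg, which activated lymphocytes secrete, for 24 h at 100 U/ml, and the other was left untreated. Both were primary cultures kept for 14 days in medium with 20% serum, were then moved to medium without serum overnight, and were described as 95% positive for cytokeratin, an epithelial protein. The series was titled for the suppression of T cells by PD-L1 on such IFNg-treated cells. Each culture gave 1 array, so the differences below have no replicate check and no p-value. The values compare these 2 arrays, and precision is limited by there being no more of them.

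Interleukins and related cytokines are small secreted proteins that bind receptors in shared families. IL-6, IL-11 and leukaemia inhibitory factor (LIF) signal through the common subunit gp130 and the transcription factor STAT3. IL-7 and IL-15 support lymphocytes through receptors that share the common gamma chain. IL-18 and IL-33 belong to the IL-1 family, and IL-18 must be cut by a caspase before it is active. IL-18 binding protein and the IL-1 receptor antagonist are secreted proteins that block IL-18 and IL-1, and macrophage colony-stimulating factor (M-CSF, gene Csf1) maintains macrophages. In the eye the RPE is known as a source of secreted factors that act on leukocytes.

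The highest ratio among the 10 genes belonged to the antagonist gene Il18bp, at least 17.9-fold higher with IFNg. Il7 was at least 2.78-fold, Il6 2.58-fold, Il18 2.21-fold and Il15 2.10-fold higher. Lif, Il33, Csf1 and Il1rn lay within 2-fold by the probe set used for the gene, and Il1rn alone had a ratio under 1. Il11 was at least 1.21-fold higher, a bound from dim signals that does not place it within 2-fold. A gene took its value from its brightest probe set, by mean log2 signal. Signals under 20.4, the pooled median, were raised to it, and a fold with 1 array at this floor is a lower bound, written "at least". With a threshold of 2-fold, 5 of the 10 genes were higher and 0 lower. A gene counts as measured when either array is above the floor. Among all 12743 measured genes, 8.82% were 2-fold higher and 4.48% were 2-fold lower. The median log2 ratio was 0.89 over the 10 genes and -0.12 over all 12743 genes. Il18bp, Il7 and Il11 were above the floor only on the IFNg array, so their ratios could not have been under 1, and the count and the median carry that limit. Because the 10 genes were chosen with earlier results of these data known, their count and median beside those of all genes are a description only.

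No biological spread can be had from these arrays. A technical spread came from genes with several probe sets above the floor on both arrays: over 4419 such genes, the SD of the log2 ratio within a gene was 0.44. It pools dim and bright probe sets on the same 2 arrays. Error that all probe sets of an array share is not in it. The log2 ratios of Il33 (0.41) and Csf1 (0.30) were smaller than this spread, and that of Il1rn (-0.47) was about as large. The ratios of Il15 and Il18 lay just past the 2-fold threshold, and Il15 (log2 ratio 1.07) passed it by less than the technical SD, as did Il18 (1.14) and Il6 (1.37). IFNg response was checked with 6 genes, each higher on the IFNg array, from 5.79-fold for Socs1, a feedback inhibitor of cytokine signalling, to 285-fold for the chemokine gene Cxcl9. The others were the transcription factor gene Irf1 (10.6-fold), Cd274 (at least 20.6-fold), the chemokine gene Cxcl10 (37.8-fold) and the GTPase gene Gbp2 (42.8-fold).

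**Figure D1:**
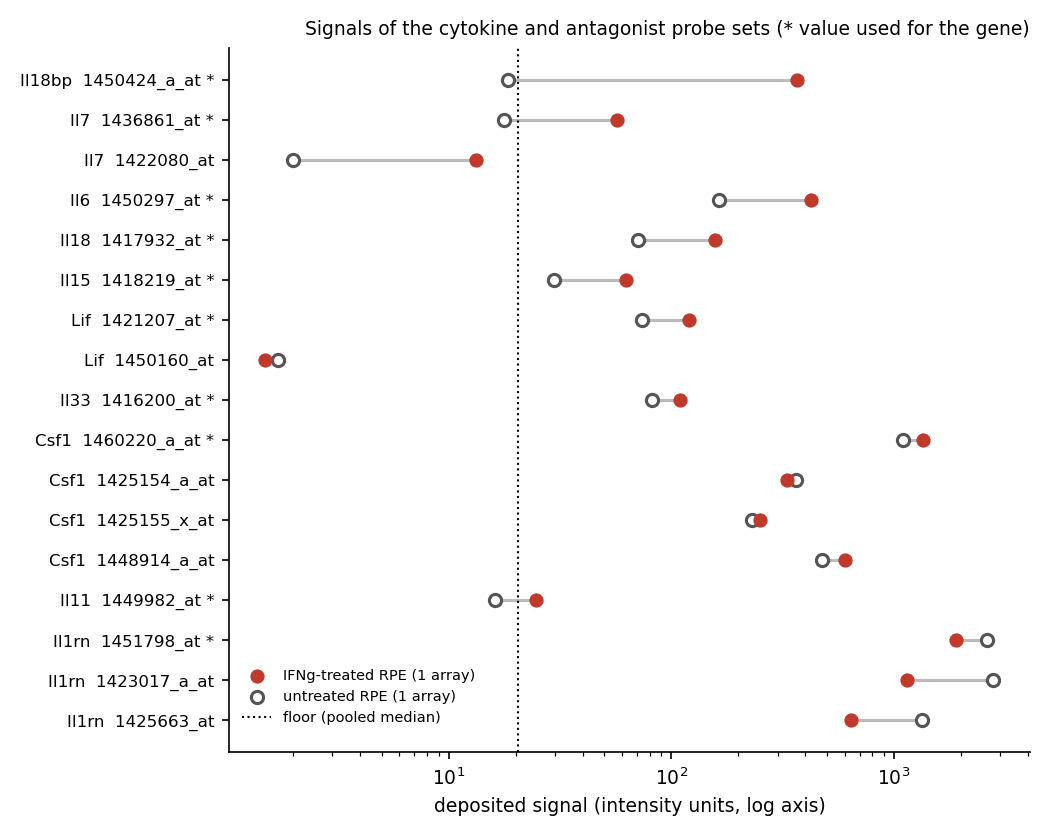
Deposited signal (intensity units, log axis) of the 17 probe sets of the 10 genes, with filled points for the IFNg array, open points for the untreated array and a dotted line at the floor of 20.4. Il18bp has the longest line among the probe sets with either array above the floor, and all 3 Il1rn probe sets lie lower on the IFNg array.

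The cultures were checked against marker genes. Of 12 RPE markers, 9 were measured, of which 0 were 2-fold higher and 3 lower. Ttr, the gene of a thyroxine and retinol carrier, had 29.4 on the IFNg array and 89.4 on the untreated array, 3.04-fold lower. The melanogenic gene Tyrp1 had 21.7 with IFNg and 53.1 without, and Rlbp1, the gene of a retinal-binding protein, 35.1 and 73.2. The RPE transcription factor gene Otx2 had a signal of 388.5 on the IFNg array and 410.9 on the untreated array, and the tyrosinase gene Tyr 605.7 and 986.1. Other RPE markers were higher with IFNg, within 2-fold. The keratin gene Krt18 had 2445.9 with IFNg and 1390.4 without, the transcription factor gene Mitf 99.6 and 66, and the keratin gene Krt8 459.9 and 453.5. Rpe65, Best1 and Dct, further genes of RPE or pigment cells, were at the floor on both arrays. All 8 fibroblast markers were above the floor on both arrays and within 2-fold, with a median log2 ratio of -0.01. The collagen gene Col1a1 had 9774.7 on the IFNg array and 11026.1 on the untreated array. By the probe sets used, Col1a2, Col3a1 and Acta2 were also lower with IFNg. Dcn (log2 ratio 0.63), Lum (0.77), Fap (0.74) and Pdgfra (0.14) were higher. Of 8 T and NK cell markers, 6 matched a probe set and 2 were measured, with 0 past 2-fold. Cd8a had dim signals of 22.6 with IFNg and 34.8 without, with its 4 other probe sets at the floor on both arrays. Cd2 had 3 and 20.6. The T-cell receptor subunit genes Cd3e and Cd3g were at the floor on both arrays. In such bulk RNA, fewer cells of a type and less RNA per cell cannot be told apart.

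The IL-18 system held the widest contrast. Il18bp (probe set 1450424_a_at) had a signal of 365.9 on the IFNg array, against 18.5 on the untreated array. The untreated signal lies under the floor, and the log2 ratio of 4.16 is therefore a bound. It has 1 probe set, so there is no second measure of it on the array. Raising the floor to the pooled 75th percentile, a signal of 86.6, lowered this bound to a log2 ratio of 2.08. Il18 (1417932_at), the ligand that Il18bp neutralises, had signals of 156.3 with IFNg and 70.8 without, both above the floor, and a log2 ratio of 1.14. The call of Il18 was lost with that higher floor (log2 ratio at least 0.85) and with a pseudocount of 16 (0.99).

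The genes that cut IL-1 family cytokines and release them were measured beside them. In the list of inflammasome and processing genes, 8 of 12 symbols matched a probe set, 4 were measured, 3 were 2-fold higher and 0 were 2-fold lower. Casp4 (mouse caspase-11), which senses lipopolysaccharide in the cytosol, was 11.3-fold higher, with signals of 360.8 on the IFNg array and 31.9 on the untreated array. Pycard, the adaptor ASC of the inflammasome, was 6.26-fold higher (915.5 and 146.3), and Gsdmd, the pore protein gasdermin D, was 2.53-fold higher (451.5 and 178.7). Casp1, the caspase that cuts IL-18, had dim signals of 28.8 with IFNg and 4 without, which gave a bound of at least 1.41-fold. The sensor genes Nlrp3, Aim2, Mefv and Naip2 were at the floor on both arrays. Of the IL-18 receptor chains, Il18r1 was not above the floor on either array, and Il18rap had 31.9 with IFNg and 29.9 without.

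Genes nearest to Il18bp in both floored log2 signals were sought among all 18193 genes, with Euclidean distance over the 2 arrays as the measure. The 3 nearest were Batf2, a transcription factor gene (distance 0.13, signals 399.5 with IFNg and 17 without), the chemokine gene Cxcl11 (0.16, 408.3 and 16.9) and Cd274, the gene for PD-L1 (0.20, 419.5 and 13.6). All 3 had untreated signals under the floor, as did Il18bp, so these distances come from the IFNg array alone. Probe sets differ in how brightly they report a transcript, so this likeness describes arrays and not amounts of RNA.

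RefSeq promoter windows, 250 bases before to 50 bases after an annotated start (build GRCm38.p6), matched 8 of the 10 genes in 12 windows. Il7 and Il15, both counted as higher with IFNg, had no window and were not searched. They were searched on both strands for GAAANNGAA (the core of the ISRE, the element of IRF factors), GGGANTTTC (the core of kappaB), TGANTCA (AP-1) and TTGCNNAA (C/EBP). No matches of different motifs overlapped in the windows of these genes. The windows of Il18bp, chr7:102018183-102018482 on the minus strand, and Il18, chr9:50554450-50554749 on the plus strand, are shown because they belong to the antagonist and its ligand, with matches in capitals.
Il18bp: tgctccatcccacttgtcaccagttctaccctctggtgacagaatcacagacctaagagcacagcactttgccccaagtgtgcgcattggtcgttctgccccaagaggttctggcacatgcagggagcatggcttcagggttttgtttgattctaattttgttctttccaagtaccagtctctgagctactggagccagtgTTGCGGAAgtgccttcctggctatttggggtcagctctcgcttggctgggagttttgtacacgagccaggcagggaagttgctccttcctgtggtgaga
Il18: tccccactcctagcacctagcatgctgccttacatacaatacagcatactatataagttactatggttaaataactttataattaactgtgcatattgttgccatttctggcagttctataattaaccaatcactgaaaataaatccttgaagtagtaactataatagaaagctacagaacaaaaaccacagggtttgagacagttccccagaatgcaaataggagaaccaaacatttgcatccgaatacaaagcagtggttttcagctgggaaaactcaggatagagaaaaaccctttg
The capitals in the Il18bp window are a C/EBP match, TTGCGGAA, whose first base lies at position -49, counted from -1 at the last base before the start. The Il18 window held 0 matches. The ISRE core matched in no window of the 8 genes, while 8.56% of all 32851 windows held its letters and 10.8% held the C/EBP letters. This says only that these letters are not in these windows.

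Both common gamma chain cytokines were higher with IFNg at low signal. Il7 (1436861_at), a survival factor of lymphocytes, had a signal of 56.8 on the IFNg array, against 17.6 on the untreated array, the second of which lies under the floor. Its other probe set (1422080_at) had 13.3 with IFNg and 2 without and was under the floor on both, so it gives no ratio. Il15 (1418219_at), which supports NK cells and memory T cells, had 62.5 with IFNg and 29.7 without. These are dim signals, and neither gene was measured when the floor was raised to the pooled 75th percentile. Il15 was within 2-fold (log2 ratio 0.78) when a pseudocount of 16 was added to unfloored signals.

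Among receptors of this family, 7 of 8 symbols matched and 5 were measured, of which 1 was 2-fold higher and 0 were lower. The one was Il15ra, the chain that presents IL-15 to neighbouring cells, 3.47-fold higher with signals of 137.6 on the IFNg array and 39.6 on the untreated array. Its other probe set, also above the floor on both arrays, had a log2 ratio of 0.38, against 1.80 for the one used. Il2rb and Il2ra, the receptor chains of responding lymphocytes, were at the floor on both arrays. Il7r had 4.4 with IFNg and 23.8 without, and Il2rg was not analysed here. The receptor genes Il4ra (log2 ratio -0.13) and Crlf2 (-0.24), with both arrays above the floor, lay within 2-fold.

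**Figure D2:**
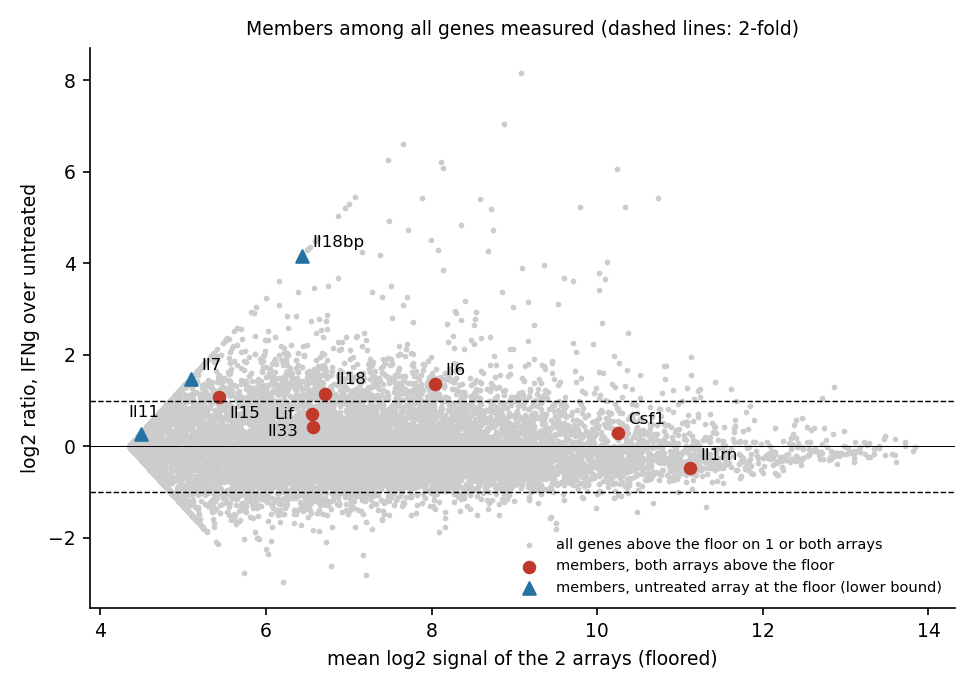
Log2 ratio (IFNg over untreated) against mean floored log2 signal of the 2 arrays for 12743 genes in grey, with the 10 members coloured and dashed lines at 2-fold. Il18bp, Il7, Il6, Il18 and Il15 lie above the upper line, and the triangles (Il18bp, Il7, Il11) mark lower bounds along the edge set by the floor.

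Of the gp130 cytokines, Il6 was past 2-fold by the signals used, and neither Lif nor the bound for Il11 was. Il6 (1450297_at), an inflammatory cytokine that also drives acute-phase genes, had a signal of 422.2 on the IFNg array, against 163.6 on the untreated array. Both lie above even the higher floor, and the gene has 1 probe set, so other floors and probe-set rules could not move its log2 ratio of 1.37. With other scalings and with a pseudocount it was 1.29 to 1.46. Lif (1421207_at) had 120 with IFNg and 74 without, a log2 ratio of 0.70, while its other probe set (1450160_at) was under the floor on both arrays with 1.5 and 1.7. Il11 (1449982_at) had 24.7 with IFNg and 16.2 without, next to the floor on either side and gave a log2 ratio of at least 0.28.

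The Il6 window, chr5:30012864-30013163 on the plus strand, is shown as the one member window that held matches to 3 of the motifs.
Il6: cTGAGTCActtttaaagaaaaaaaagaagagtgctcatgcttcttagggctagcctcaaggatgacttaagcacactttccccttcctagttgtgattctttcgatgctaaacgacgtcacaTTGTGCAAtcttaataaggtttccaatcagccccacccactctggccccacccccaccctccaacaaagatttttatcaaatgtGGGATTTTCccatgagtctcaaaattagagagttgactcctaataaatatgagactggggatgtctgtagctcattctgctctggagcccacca
The capitals mark an AP-1 match, TGAGTCA, with its first base at -249, a C/EBP match on the opposite strand, TTGTGCAA, at -128, and a kappaB match, GGGATTTTC, at -44. Of all 32851 windows, 7.81% held the AP-1 letters and 1.11% the kappaB letters. AP-1 letters also matched in windows of Lif, Il11 and Il1rn, and kappaB letters in the window of Csf1.

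The receptors of the gp130 family showed 1 of 6 measured genes 2-fold higher and 0 lower. Lifr, the LIF receptor chain, was 3.36-fold higher, with 906.8 on the IFNg array and 270.2 on the untreated array. Its 2 further probe sets had log2 ratios of 1.01 and at least 1.48, so all 3 were past 2-fold. Osmr, the chain for oncostatin M, was just under the threshold with 1570.3 with IFNg and 785.8 without (log2 ratio 1.00), and it passed 2-fold after quantile normalization (1.04) or removal of a loess curve (1.15). Il6st, the gene for gp130 itself, had 1469.1 and 1005.2 (log2 ratio 0.55). Il6ra, the IL-6 binding chain, was dim, with 14.9 with IFNg and 29.2 without. Il11ra1 was not analysed here.

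Known target genes of gp130 and STAT3 lay within 2-fold throughout. Of 12 such genes, all above the floor on both arrays, 0 were 2-fold higher and 0 were 2-fold lower, with a median log2 ratio of -0.07. The feedback inhibitor gene Socs3 had signals of 884.8 on the IFNg array and 1036.1 on the untreated array. The acute-phase gene Saa3 had 6778.4 and 7945.2, the protease inhibitor gene Timp1 5637.9 and 5732.4, and Stat3 itself 1837.5 and 1744.3. Of further gp130 ligands, Ctf1 (cardiotrophin) had a log2 ratio of -0.89 and Clcf1 of -0.24, both within 2-fold.

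Il1rn, the gene for the IL-1 receptor antagonist, was lower with IFNg in all 3 of its probe sets. The probe set used for the gene (1451798_at) had 1890.6 on the IFNg array, against 2626.8 on the untreated array, 1.39-fold lower. A second (1423017_a_at) had 1145.4 and 2794.2, 2.44-fold lower, and the third (1425663_at) had 643.3 and 1336.5, 2.08-fold lower. So 2 of 3 were past 2-fold, and the gene was not, by the rule of the brightest probe set; the mean log2 ratio over the 3 was -0.94. Its targets and agonists were measured too. Il1b had dim signals of 27.3 with IFNg and 34.6 without, Il1a was not measured, and the receptor gene Il1r1 had 300.4 and 245.2.

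Il33, which is stored in nuclei and released as an alarm signal, had 109.3 on the IFNg array and 82.1 on the untreated array (1416200_at, log2 ratio 0.41). Its receptor gene Il1rl1 was not analysed here. The accessory chain Il1rap had 44.1 and 25, a log2 ratio of 0.82, with a further probe set at 0.04. In the list of IL-1 family receptors 7 of 8 symbols matched, 6 were measured, and 0 were past 2-fold in either direction.

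Csf1 was measured by 4 probe sets, and all lay within 2-fold. The brightest (1460220_a_at) had 1350.4 on the IFNg array, against 1100.1 on the untreated array. The others had 601.1 and 472.9 (1448914_a_at), 332.1 and 364.5 (1425154_a_at) and 250.7 and 231 (1425155_x_at), whose ID marks possible cross-hybridisation. Their log2 ratios ran from -0.13 to 0.35, with 3 of 4 above 0. The gene for its receptor, Csf1r, was 2.62-fold lower, with 77.5 with IFNg and 202.8 without, although the log2 ratios of its further probe sets were -0.56 and -0.28. Il34, which encodes a second ligand of that receptor, had 45 and 52.

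Macrophages make both M-CSF receptor and IL-1 receptor antagonist, and their markers were measured beside Il1rn. Of 12 macrophage and microglia markers, 9 were measured, of which 0 were 2-fold higher and 3 lower. The 3 were Csf1r, Fcer1g, with signals of 10.6 on the IFNg array and 46 on the untreated array, and Laptm5, with 8.7 and 40.9. Fcer1g and Laptm5 had the IFNg array at the floor, so their ratios are bounds, and that of Laptm5 only just reached 2-fold. The 2 further Laptm5 probe sets above the floor on both arrays had log2 ratios of -0.19 and -0.55. The other 6 measured markers lay within 2-fold or at bounds under it, with log2 ratios from -0.84 for Tyrobp to -0.03 for Ptprc. The summed signal of the 12, with signals under the floor included, was 852.4 on the IFNg array and 1354.3 on the untreated array. The largest part came from 1 gene, Lyz2, with 486.5 on the IFNg array and 660.8 on the untreated array. The median log2 ratio of the 9 measured markers was -0.67. Medians were also below 0 for endothelial markers (-0.46), T and NK cell markers (-0.32), RPE markers (-0.12), fibroblast markers (-0.01) and all genes (-0.12). Whether macrophage markers differ from these was not tested. Itgam, Aif1 and Cx3cr1 were not measured, and the leukocyte gene Ptprc had 7 with IFNg and 20.8 without. The part of such cells in the Il1rn result was not tested.

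Other ligands were mostly too dim to compare. In 6 lists of further ligands, 36 of 51 symbols matched a probe set and 23 of these were at the floor on both arrays. Some IL-1 family genes were listed under both an older and a newer symbol, so 51 is not a count of genes. Among the 13 measured, 1 was 2-fold higher and 0 were lower. It was Kitl, the gene for stem cell factor, with 681.3 on the IFNg array and 260.1 on the untreated array (2.62-fold), although its further probe sets had log2 ratios of 0.93, 0.32 and -0.41. Il10, Il12a, Il12b, Il23a and Ifng were at the floor on both arrays, as were Il2, Il4, Il5, Il13 and Tslp. Csf3, the gene for granulocyte colony-stimulating factor, had 71.1 and 86.3, and Csf2 was at the floor on both.

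**Figure D3:**
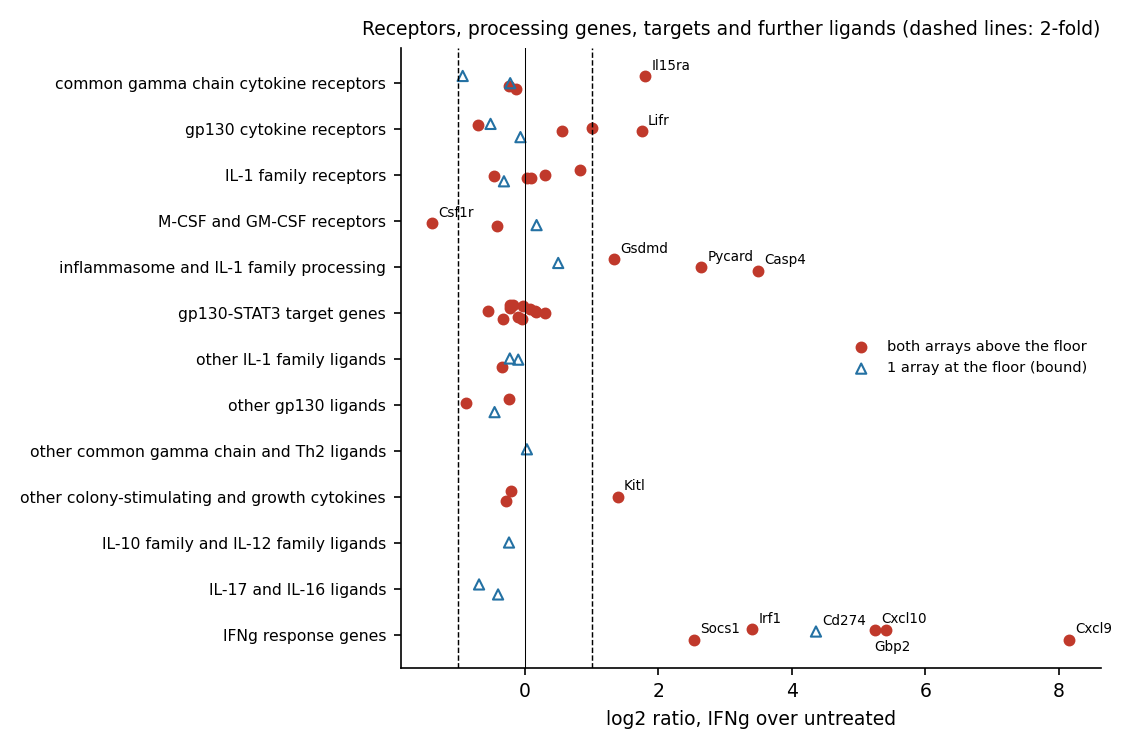
Log2 ratio (IFNg over untreated) of each measured gene in the 13 lists of receptors, processing genes, targets, further ligands and IFNg response genes, with dashed lines at 2-fold and names for genes past it. Triangles mark genes with 1 array at the floor. The 12 gp130-STAT3 target genes sit between the lines, while Casp4, Pycard, Il15ra, Lifr, Kitl and Gsdmd lie above the upper one and Csf1r below the lower one.

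Processing changed how many of the 10 genes were past 2-fold, and no log2 ratio of a measured member changed sign under the alternatives run. Much of the constancy of sign was fixed in advance. Another floor or a pseudocount cannot reverse the sign of a probe set's ratio. Il18bp, Il7 and Il11 had the untreated array at the floor, so their floored ratios could not be negative. Omitting the rescaling hardly altered the values, and leaving out probe sets with shared sequence altered no member. The log2 ratio of Il18bp ran from 2.08 to 4.31 over the 9 alternatives, that of Il18 from 0.85 to 1.17 and that of Il1rn from -0.94 to -0.34. Il15 ran from 0.78 to 1.07 and Il7 from 0.74 to 1.69, each over the 8 alternatives in which it was measured.

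**Figure D4:**
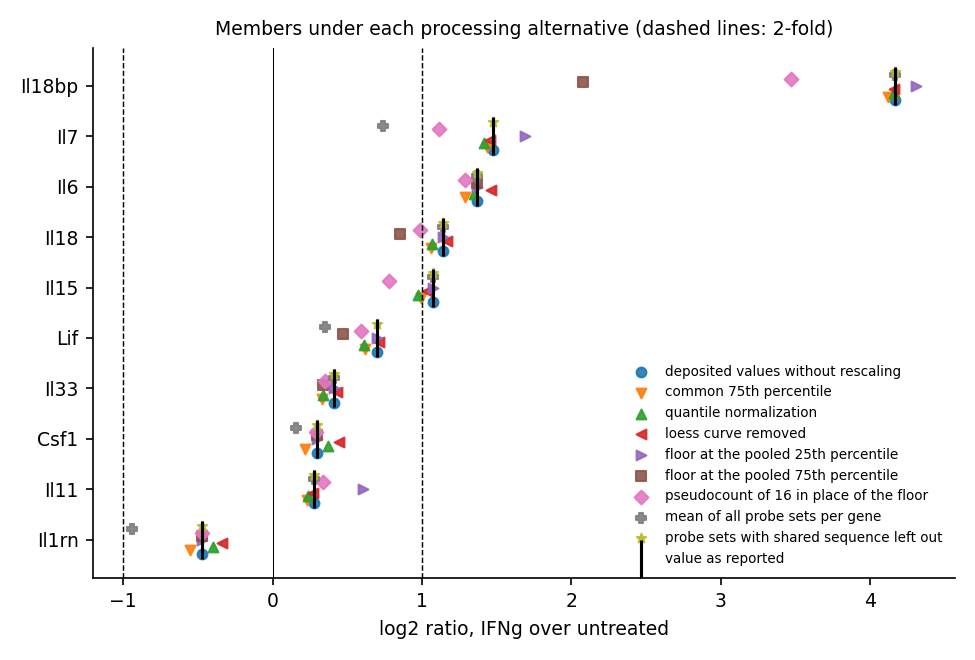
Log2 ratio (IFNg over untreated) of the 10 genes as reported (black bars) and under the 9 alternatives of scaling, floor and probe-set choice (symbols), with dashed lines at 2-fold. Il18bp and Il6 stay above the upper line under each of them (4 of the alternatives could not move Il6), Il7, Il18 and Il15 cross it under some, and Il1rn is below 0 throughout.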

How the data were processed

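RNA from 2 primary cultures was labelled with biotin and hybridised to 1 Affymetrix mouse array each, per the labels' protocols. The deposited values are linear probe-set signal intensity, and each array's mean after trimming 2% at each end is 100.001, as seen in the values. Not given in the sources used here are the summarisation software, the detection calls and any background correction. The groups come from the sample titles.

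The 64 control probe sets were left out, the arrays were scaled to a common 2% trimmed mean, a floor was set at the pooled median (20.4), and log2 was taken. Names came from the platform annotation, with 34945 probe sets naming 1 gene, 932 several and 9160 none, and 0 symbols changed through the Entrez identifier. The members and the gene lists were chosen with earlier results of these data known. Of 155 list symbols, some of them repeats or second names of a gene, 130 matched a probe set. The text names all 10 members, each gene past 2-fold in the lists of related genes and otherwise up to 3 of a list's measured genes with high signal, the 3 genes nearest to Il18bp, and IFNg response and leukocyte genes as checks. Other receptor, sensor, ligand and marker genes were named after their values were seen. No test was possible with 1 array a group; a gene was counted at 2-fold when its brighter array was above the floor. The procedure was run on simulated data with changes larger than 2-fold in genes well above the floor on both arrays. Changes near the 2-fold threshold or in genes at the floor were not simulated, so calls of that kind were not tested. Analyses used Python 3.11.15, numpy 2.4.6, pandas 2.3.3, statsmodels 0.14.6 and matplotlib 3.10.9.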

Additional observations from a re-analysis of the deposited data

How the results depend on the processing

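The number of the 10 genes 2-fold higher was 5 as reported, and 4 or 5 with other scalings, with the floor at the pooled 25th percentile and with either other probe-set rule (Il15 fell within 2-fold with a common 75th percentile or quantile normalization, Il7 with the mean over probe sets). It was 2 with the floor at the pooled 75th percentile (Il18bp and Il6), 3 with a pseudocount of 16 (with Il7 added), 6 at a threshold of 1.5-fold (with Lif added) and 1 at 3-fold (Il18bp). The number 2-fold lower was 0 under all 11 alternatives, including the mean over probe sets, where Il1rn reached -0.94. The median log2 ratio of the 10 genes ran from 0.58 to 0.89, and it was 0.47 over the 7 genes still measured with the floor at the 75th percentile. Over all genes, 1124 were higher and 571 lower as reported (8.82% and 4.48% of the measured genes). Shares below are of the genes measured under each setting. The floor at the 25th percentile gave 2258 and 2059 (13.6% and 12.4%), and that at the 75th percentile 574 and 163 (7.39% and 2.1%). The mean over probe sets gave 591 and 357 (4.64% and 2.8%). A threshold of 1.5-fold gave 2287 and 2381 (17.9% and 18.7%), and 3-fold 336 and 59 (2.64% and 0.463%). A higher floor leaves fewer genes and smaller bounds. The mean over probe sets counts a probe set under the floor on both arrays as a log2 ratio of 0. For Il7 and Lif it therefore averaged in a probe set that gives no ratio. The cause of other shifts was not tested. Il18bp, Il7 and Il11, under the floor on the untreated array, have bounds only, and Il7, Il11 and Il15 were not measured with the higher floor. No paired analysis was possible because each group has 1 array.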

Other observations

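Several genes around the members had probe sets that disagreed. For Il6st, the gp130 gene, 4 probe sets above the floor on both arrays had log2 ratios of 0.68, 0.55, 0.01 and -0.22. For Stat3, dim probe sets gave at least 1.77 with the untreated array at the floor and -0.82 with the IFNg array at the floor, beside 0.23 and 0.07 for bright ones. Among IL-17 and IL-16 genes, Il16 had signals of 5.6 with IFNg and 32.9 without, and Il17a 10.7 and 27, so both were under the floor on the IFNg array.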
